A study of Mus musculus with 24 samples.

Results

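MeDIP–seq (methylated DNA immunoprecipitation with sequencing) maps DNA 5-methylcytosine (5mC) by capturing methylated fragments with an antibody, and it was applied here to mES cells, embryonic stem cells of the mouse. The regions described here are the 329 windows of 100 bp that were listed as different between Tet2-KO and WT cells and that started within 1000 bp of a window listed as different between Pspc1-KO and WT cells. They were chosen by the measured IP contrasts of both comparisons, out of 11540 Tet2-KO windows that remained after chromosomes X and Y and 51 windows in 1 block of chromosome 17 were set aside (14279 in the whole list). The Pspc1-KO list held 307 windows, of which 154 lay near a member. Neighbouring windows of either list were joined into 43 loci. The Tet2 comparison used 3 IP libraries of WT and 3 of Tet2-KO cells, both of which had received siNC, a control siRNA. The Pspc1 comparison used WT and Pspc1-KO cells for which the labels give no siRNA, with 3 IP libraries and 3 Input libraries, sequenced without the antibody, per genotype. The WT data columns of both comparisons carry the name Tet2WT. Both may therefore rest on the same WT line, and they cannot be taken as independent contrasts. WT and Tet2-KO cells that had received siNsun2, an siRNA against Nsun2, gave 3 IP libraries per genotype and are used at the end. All cells were grown with serum, LIF and the inhibitors CHIR99021 and PD0325901. The WT and Tet2-KO lines came from another laboratory, and the number of clones and the origin of the Pspc1-KO line are not given in the sources used here, so clone and genotype cannot be told apart. The study describes its genome-wide replicates as biological, but the labels do not say whether they were separate cultures, so p-values measure only the spread between these samples, which may be technical. No Input of the Tet2 experiment was analysed here, and a change in DNA copy number cannot be told apart from a change in 5mC in that comparison.

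TET enzymes oxidize 5mC, the first step of active DNA demethylation. TET2 lacks a DNA-binding CXXC domain of its own and depends on partner proteins, and PSPC1, an RNA-binding protein of nuclear paraspeckles, is one of them in mES cells. Inhibitors such as those used here lower the overall 5mC of mES cells, and imprinted genes carry 5mC on 1 parental allele of their control regions. MeDIP signal rises with both the share of methylated CpG sites and their number in a fragment, and it also scales with the number of copies of a sequence in the genome. The terms hypomethylated and hypermethylated below therefore refer to lower and higher MeDIP signal in KO cells and not to a measured methylation level.

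The windows below are 9 of the 329 members, printed to show what kinds of sequence the loci are made of. Each is the window of its locus with the strongest MeDIP signal among those without annotated untranslated sequence, read from the plus strand of mm10, with CpG sites in capitals. The first 4 come from unique loci that were hypomethylated in both KO lines, at chr10:13091101-13091200, chr15:97054801-97054900, chr6:48025201-48025300 and chr7:6189401-6189500. The next 2 come from hypomethylated tandem repeats, at chr12:53707601-53707700 and chr4:118547901-118548000. The window near Platr5 at chr1:88760801-88760900 and the Bcat1 window at chr6:145004501-145004600 were hypermethylated in both lines, and the last, at chr11:3193601-3193700, was higher in Tet2-KO and lower in Pspc1-KO cells.
Plagl1 intron: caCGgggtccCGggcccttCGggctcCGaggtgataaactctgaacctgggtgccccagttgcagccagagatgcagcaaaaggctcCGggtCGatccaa
Slc38a4 intron: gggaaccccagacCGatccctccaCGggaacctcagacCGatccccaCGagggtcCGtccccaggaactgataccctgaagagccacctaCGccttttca
Zfp777 exon: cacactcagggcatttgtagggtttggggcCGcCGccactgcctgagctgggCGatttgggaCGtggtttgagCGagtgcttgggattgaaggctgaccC
Zfp444 exon: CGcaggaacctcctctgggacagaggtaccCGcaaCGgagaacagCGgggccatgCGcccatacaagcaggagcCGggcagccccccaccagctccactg
Npas3 intron: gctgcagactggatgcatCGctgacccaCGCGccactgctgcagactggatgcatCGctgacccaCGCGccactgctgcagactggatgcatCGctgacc
upstream of Tmem125: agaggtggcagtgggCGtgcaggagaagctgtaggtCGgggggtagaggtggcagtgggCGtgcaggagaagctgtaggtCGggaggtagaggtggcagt
near Platr5: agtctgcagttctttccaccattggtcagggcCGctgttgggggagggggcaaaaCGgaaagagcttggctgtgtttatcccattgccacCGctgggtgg
Bcat1 intron: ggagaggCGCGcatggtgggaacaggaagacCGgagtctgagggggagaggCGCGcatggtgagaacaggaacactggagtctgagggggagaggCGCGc
Gm12735, inside Drg1: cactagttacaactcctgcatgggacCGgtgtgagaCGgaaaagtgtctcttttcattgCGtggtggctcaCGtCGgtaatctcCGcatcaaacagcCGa

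The printed windows held from 3 to 7 CpG sites. The Npas3 window repeats a unit of 37 bp, and over the whole locus 64.2% of bases were equal to the base 37 positions further on, against a median of 24.6% over shifts of 10 bp and more. The locus upstream of Tmem125 repeats a unit of 44 bp, with 83.0% equal bases against a median of 33.3%. Bcat1 also showed a period of 44 bp (60.7% equal) and Slc38a4 one of 37 bp (75.7% equal), although each of their windows occurred once in the reference.

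Most loci were hypomethylated in both KO lines. Of the 43 loci, 32 had a lower mean IP signal in Tet2-KO and in Pspc1-KO cells, 4 were higher in both, 6 were higher in Tet2-KO and lower in Pspc1-KO cells, and 1 was lower in Tet2-KO and higher in Pspc1-KO cells. No locus mixed directions within 1 list. Of the 329 member windows, 291 (88.4%) were lower in Tet2-KO cells, beside 79.4% of the eligible windows and 83.1% of the whole Tet2-KO list. Of the 154 nearby Pspc1-KO windows, 145 (94.2%) were lower in Pspc1-KO cells, beside 81.1% of that whole list. These shares describe windows that both lists had already selected for differing, so nothing was tested on them. IP libraries of KO and WT overlapped at 0 of the 43 loci in either comparison. The choice of windows favours this, so the separation given below sets no single locus apart.

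The Pspc1-KO change was the smaller one at nearly every locus. Changes are given as the log2 ratio of mean RPKM (reads scaled to window length and library size) in KO over WT, with 0.1 added to both. Over the 32 loci hypomethylated in both lines, the Tet2-KO change had a median of -2.03 (range -5.34 to -0.87) and the Pspc1-KO change a median of -0.55 (range -1.28 to -0.27). Subtracting the Input change moved the median of the 145 lower Pspc1-KO windows from -0.5612 to -0.2791. The Tet2-KO change was the larger in size at 41 of 43 loci, the exceptions being Sfi1 and the first locus of an unplaced contig. A total of 121 windows stood in both lists, 36.8% of the members and 78.6% of the nearby Pspc1-KO windows. Of these, 109 were lower in both lines, 7 higher in both, 4 higher in Tet2-KO and lower in Pspc1-KO cells, and 1 the opposite. The change was larger in Tet2-KO cells at 118 of the 121. The tables were normalized separately, and the WT level itself differed between the experiments, with a median of 64.1 RPKM in WT siNC and 117 RPKM in the WT libraries of the Pspc1 experiment over the shared windows. Sequencing was deeper in the Pspc1 experiment (20.4 to 39.8 M reads per IP library) than in the Tet2 experiment (8.92 to 15.4 M).

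**Figure D1:**
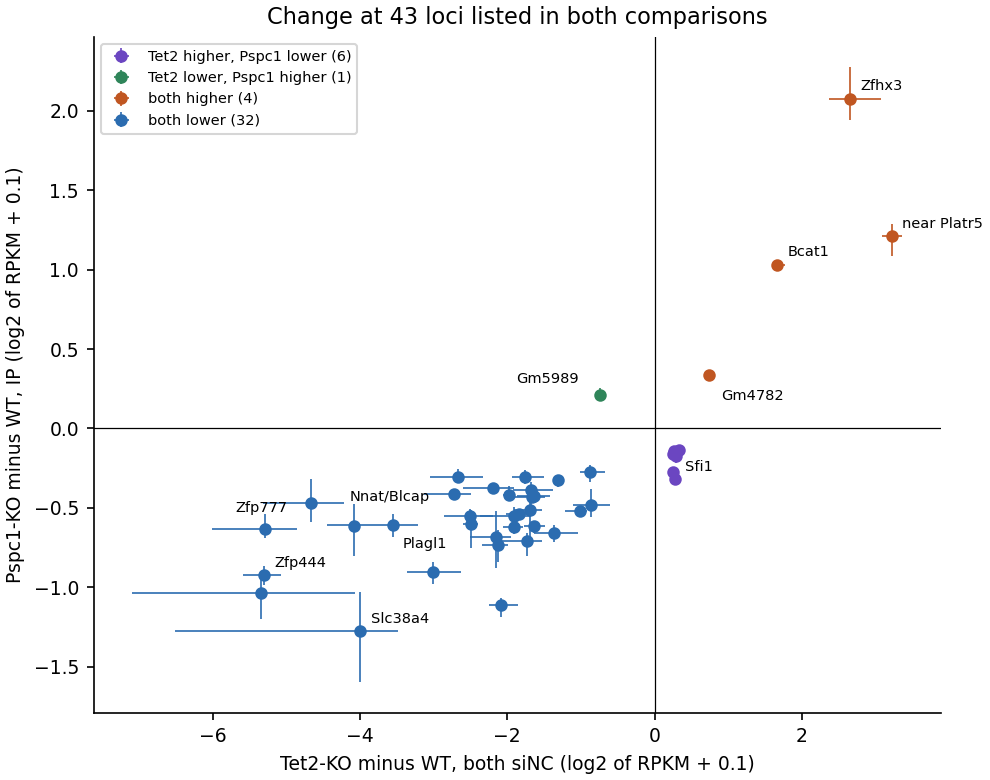
Each point is a locus, with its log2 change in Tet2-KO cells on the horizontal axis and in Pspc1-KO cells on the vertical axis, and bars from the lowest to the highest KO library against the WT mean. The 32 blue points lie in the lower left with a Pspc1-KO change no deeper than -1.28, while 6 purple points lie close to 0 on both axes.

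The distance limit did not fall at a break in the data. At its edge, 5 members lay 1000 bp from the nearest Pspc1-KO window, and their Tet2-KO changes were -0.98, 1.47, -2.17, -2.05 and -1.59. Just outside, 5 windows at 1100 bp changed by -1.02, -2.57, -1.84, -2.02 and -1.55. Within the limit, 121 members coincided with a Pspc1-KO window, 178 lay 100 to 500 bp away and 30 lay 600 to 1000 bp away.

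Imprinted genes stood among the loci with the deepest Tet2-KO change. Plagl1 encodes a zinc-finger transcription factor expressed from the paternal allele, and its locus at chr10:13090401-13091400, at an exon and an internal transcription start of the gene, held 10 Tet2-KO and 3 Pspc1-KO windows. The signal was 30.97, 20.2 and 24.5 RPKM in the WT siNC libraries and 2.47, 2.63 and 1.06 RPKM in the Tet2-KO siNC libraries. In the Pspc1 experiment it was 111, 111 and 118 RPKM in WT and 74.2, 70.6 and 78.2 RPKM in Pspc1-KO libraries. Groups did not overlap in either experiment, as at every locus, and Tet2-KO cells kept little of the signal whereas Pspc1-KO cells kept most of it. The log2 change was -3.56 ± 0.374 (SD, n = 2) for Tet2-KO and -0.61 ± 0.0736 (SD, n = 3) for Pspc1-KO cells. Each such SD is over the KO libraries against the WT mean. The spread of the WT libraries does not enter it, so it understates the uncertainty of the change. Here and below n = 2 where replicates 2 and 3 of a Tet2-experiment group differed by less than sampling noise while other pairs of the group did differ, and were averaged as 1 sample, as were WT IP replicates 1 and 2 of the Pspc1 experiment. All 3 Pspc1-KO IP libraries agreed within about sampling noise, so no pair stood apart and they are given as n = 3, with an SD that may be technical.

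Nnat, which encodes the membrane proteolipid neuronatin, lies within an intron of Blcap and is imprinted. Its locus at chr2:157559801-157560700 covered the start of Nnat and held 9 Tet2-KO windows and 1 Pspc1-KO window. WT siNC libraries held 28.0, 28.9 and 27.7 RPKM and Tet2-KO libraries 1.49, 1.58 and 1.65 RPKM, a log2 change of -4.08 ± 0.0730 (SD, n = 2). WT and Pspc1-KO libraries of the other experiment held 65.3, 65.8 and 63.8 RPKM and 37.2, 43.01 and 46.7 RPKM, a log2 change of -0.62 ± 0.166 (SD, n = 3). As at Plagl1, no KO library reached the lowest WT library. A further locus, chosen after its values were seen, lay in an intron of Slc38a4 at chr15:97054601-97054900. Slc38a4 encodes an amino acid transporter and is imprinted in the mouse. The 2 Tet2-KO windows held 7.81, 9.78 and 9.44 RPKM in WT siNC and 0, 0.711 and 0.705 RPKM in Tet2-KO libraries, and the 3 Pspc1-KO windows 29.1, 24.8 and 31.8 RPKM in WT and 11.9, 13.9 and 9.37 RPKM in Pspc1-KO libraries. Over replicates 1 and 2, 2 reads in Tet2-KO faced 44 in WT siNC, a WT over KO ratio of 20.4 (95% exact interval 5.32 to 174, which covers counting error only). Slc38a4 had the deepest Pspc1-KO change of all 43 loci, -1.28 ± 0.285 (SD, n = 3).

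Input at these imprinted loci was too thin to weigh against the IP. The 3 WT Input libraries held 1.23, 0.591 and 0.225 RPKM at Plagl1 and the Pspc1-KO Input libraries 0.588, 1.24 and 1.27 RPKM, from 18 reads in all. At Nnat 7 Input reads were present over the 6 libraries. Slc38a4 was the exception in one respect, with Input at 1.23, 0.296 and 0.450 RPKM in WT and 1.76, 1.54 and 1.58 RPKM in Pspc1-KO libraries. There the Input of the KO was higher in all 3 libraries while the IP was lower, from 24 reads.

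Some unique loci at protein-coding genes were also hypomethylated in both lines. Zfp777 and Zfp444 encode zinc-finger proteins, and in Tet2-KO cells their signal came close to the limit of detection. The Zfp777 locus at chr6:48024401-48025500 overlapped an exon and held 39.3, 33.4 and 33.3 RPKM in WT siNC and 1.12, 0.840 and 0.449 RPKM in Tet2-KO libraries. Pspc1-KO libraries held 59.6, 53.7 and 54.6 RPKM there and their WT libraries 91.6, 85.5 and 83.1 RPKM. The log2 changes were -5.29 ± 0.541 (SD, n = 2) in Tet2-KO and -0.63 ± 0.0802 (SD, n = 3) in Pspc1-KO cells. Input at Zfp777 was 0, 0.634 and 0.579 RPKM in WT and higher, 1.89, 2.12 and 0.814 RPKM, in Pspc1-KO libraries, from 48 reads. The Zfp444 locus at chr7:6189401-6190200 held 18.1, 16.6 and 17.7 RPKM in WT siNC and 0.420, 0.267 and 0.353 RPKM in Tet2-KO libraries, with 6 against 343 reads over replicates 1 and 2 (WT over KO ratio 53.0, 95% exact interval 24.1 to 145). Its signal in the other experiment was 42.5, 53.7 and 53.9 RPKM in WT and 25.3, 27.3 and 26.3 RPKM in Pspc1-KO libraries. An intergenic locus at chr9:4260301-4260600, singled out after its values were seen, showed the same pattern, with 1 Tet2-KO read against 35 WT reads over replicates 1 and 2 and a Pspc1-KO change of -1.03 ± 0.145 (SD, n = 3).

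Other genes of this kind changed less in Tet2-KO cells. At chr10:79734901-79736200, where Hcn2, a pacemaker channel gene, meets Polrmt, the mitochondrial RNA polymerase gene, the changes were -2.51 ± 0.361 (SD, n = 2) and -0.55 ± 0.0416 (SD, n = 3). Chst13, a chondroitin sulfotransferase gene, showed -1.69 ± 0.184 (SD, n = 2) and -0.51 ± 0.154 (SD, n = 3) over 3 windows of each list at chr6:90309301-90309600. As at every locus hypomethylated in both lines, each KO library lay below each WT library at both loci. At the annotated gene Gm13146 (chr4:147187201-147188000), whose windows occurred up to 3 times in the reference, the changes were -2.49 and -0.60. Of 17 loci made only of windows unique in the reference, 3 were higher in both lines and 1 was higher in Tet2-KO and lower in Pspc1-KO cells. The remaining 13 were hypomethylated in both lines, with median changes of -3.56 in Tet2-KO and -0.62 in Pspc1-KO cells. The other 19 loci hypomethylated in both lines had medians of -1.74 and -0.52.

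**Figure D2:**
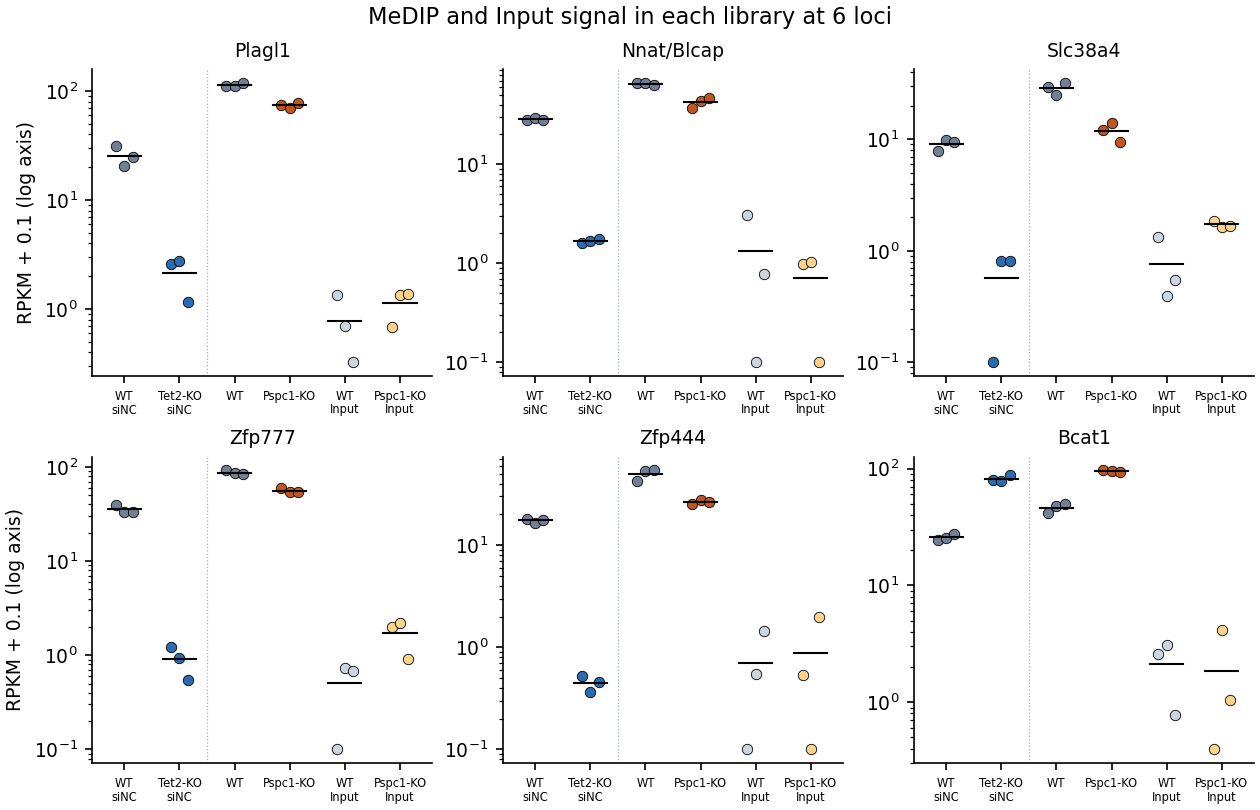
Points are the RPKM of each library plus 0.1, on a log axis, at 6 loci, and lines are group means. At the first 5 loci each Tet2-KO library falls far below each WT siNC library while Pspc1-KO libraries sit closer under their own WT, and at Bcat1 both KO lines are above WT. Input points run from 0 to 4.02 RPKM, with Pspc1-KO above WT Input at Slc38a4 and Zfp777.

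Both loci with the most windows were tandem repeats. Ahnak2 encodes a large scaffold protein with internal repeats, and its locus at chr12:112776601-112784700 overlapped an exon and held 53 members and 32 Pspc1-KO windows, 24 of them shared. A period of 519 bp was present there, with 71.4% equal bases against a median of 27.5% over shifts, and the windows had a median of 15 copies in the reference. The signal was 54.2, 45.5 and 43.6 RPKM in WT siNC and 16.9, 13.96 and 15.2 RPKM in Tet2-KO libraries. For the Pspc1-KO windows it was 91.2, 89.8 and 91.8 RPKM in WT and 57.7, 59.98 and 60.7 RPKM in Pspc1-KO libraries. Every window was lower, from -2.31 to -1.20 in Tet2-KO and from -0.88 to -0.49 in Pspc1-KO cells. Input was 1.39, 1.47 and 1.03 RPKM in WT and 1.43, 1.04 and 0.9501 RPKM in Pspc1-KO libraries, which overlapped.

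An intron of Npas3, a gene for a bHLH-PAS transcription factor, held the 37-bp repeat printed above at chr12:53707101-53708100, a locus named after its values were seen. Its signal was 124, 109 and 102 RPKM in WT siNC, 32.2, 30.4 and 26.7 RPKM in Tet2-KO, 323, 340.0 and 331 RPKM in WT and 218, 209 and 219 RPKM in Pspc1-KO libraries, again without overlap. At the cluster of 5S ribosomal RNA genes around Gm24089 (chr8:123600601-123601900), where windows had a median of 45 copies in the reference, the changes were -1.91 ± 0.449 (SD, n = 2) and -0.55 ± 0.0480 (SD, n = 3). Input there was 10.7, 11.1 and 7.77 RPKM in WT and 10.6, 18.5 and 10.5 RPKM in Pspc1-KO libraries. Reads from any copy can be placed at these windows, so a change cannot be assigned to 1 copy. An intergenic locus at chr3:5860401-5860800, also chosen after its values were seen, had a high Input that overlapped between genotypes, 73.0, 58.1 and 79.3 RPKM in WT and 70.8, 81.8 and 58.7 RPKM in Pspc1-KO libraries. Its IP signal was 46.5, 52.2 and 51.0 RPKM in WT and 21.8, 23.6 and 23.7 RPKM in Pspc1-KO libraries, so here the IP fell by 53.8% with 2047 Input reads behind the comparison.

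The locus with the strongest signal was the 44-bp repeat at chr4:118547001-118548800, 2957 bp from Tmem125. Its windows recurred inside the locus up to 33 times and all of the reference copies found lay within it. IP signal was 6102, 6863 and 6763 RPKM in WT siNC and 2824, 3423 and 3488 RPKM in Tet2-KO libraries, and 3977, 3789.7 and 3495 RPKM in WT and 2561, 2619 and 2661 RPKM in Pspc1-KO libraries. Input was 129.3, 133 and 131 RPKM in WT and 106, 99.5 and 97.0 RPKM in Pspc1-KO libraries. Both IP and Input of Pspc1-KO cells were below WT in every library. The IP change was -0.52 ± 0.0277 (SD, n = 3) and the Input change -0.38, which left -0.15 on the log2 scale.

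Input was the measure that the choice of windows had not used, and it was tested. With edgeR's quasi-likelihood test over all 307 Pspc1-KO windows and Benjamini-Hochberg adjustment at 0.05, 10 windows differed between Pspc1-KO and WT Input, 3.26% of those tested. All 10 were near a member, all were lower in Pspc1-KO cells and all lay in the repeat near Tmem125, with log2 changes from -0.52 to -0.30 and adjusted p from 0.000142 to 0.0463. At an unadjusted p under 0.05, 23 of the 154 windows near members and 34 of all 307 passed. The call depended on the test, since DESeq2 called 0 windows (11 near members at an unadjusted p under 0.05), and on 1 library, since 0 windows were called without the third WT Input library. Over the 154 windows near members, the Input held a median of 10 reads per window summed over 6 libraries, so at most windows a difference of the size seen in the IP could be missed at this depth. Summed over each locus, Input libraries of both genotypes did not overlap at 10 of 43 loci, 6 lower and 4 higher in Pspc1-KO cells. Some of these loci held few Input reads, such as 24 at Slc38a4 and 29 at Hcn2. With 3 libraries per group such separation also arises without a change. No share over the other Pspc1-KO windows was computed, so the count is not read as a difference.

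At the 12 loci with at least 100 Input reads in all, the IP and Input changes of Pspc1-KO cells could be set side by side. They had the same sign at 8 loci, and the IP change kept its sign after the Input change was subtracted at 8. The difference of IP and Input change was largest at the chromosome 3 locus (-1.12) and the 5S cluster (-0.97), followed by Ahnak2 (-0.44), Sfi1 (-0.41) and the first locus of the unplaced contig (-0.30). A locus at chr6:114560801-114561600 kept -0.20 and the repeat near Tmem125 -0.15. At the Naip1 locus it was 0.012, at Gm10717 0.013 and at the other 3 loci of the contig -0.0094, 0.015 and 0.087. The last 5 are values at which Input moved about as far as the IP.

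**Figure D3:**
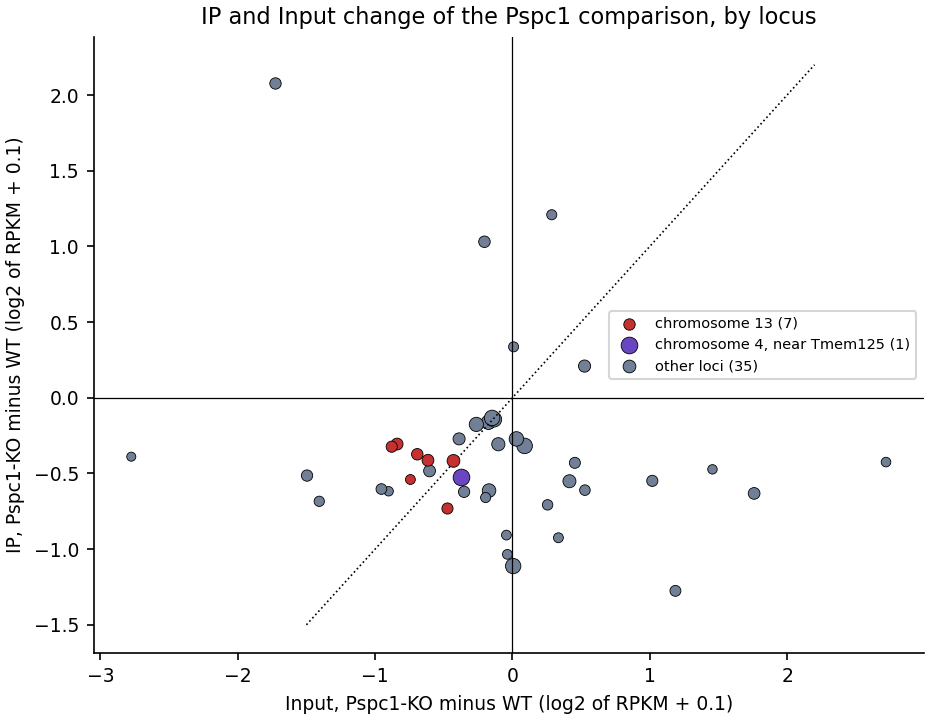
Each point is a locus, with the Input change of Pspc1-KO cells on the horizontal axis, the IP change on the vertical axis and larger points for more Input reads. The 7 loci of chromosome 13 and the locus near Tmem125 lie left of 0 on the Input axis, and points on the dotted line changed as much in Input as in IP.

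The remaining loci hypomethylated in both lines were named after their values were seen. An intron of Synj2, a gene for the lipid phosphatase synaptojanin 2, at chr17:5949101-5949800, held 42.5, 41.1 and 53.8 RPKM in WT siNC and 1.68, 2.37 and 1.06 RPKM in Tet2-KO libraries, against 127, 128 and 124 RPKM in WT and 87.7, 83.9 and 102 RPKM in Pspc1-KO libraries. Synj2 thus lost most of its signal in Tet2-KO cells and less than 50% of it in Pspc1-KO cells. The other 8, among them an intron of the annotated gene Gm38407 and an unplaced contig, changed by -2.15 to -0.87 in Tet2-KO and by -0.71 to -0.27 in Pspc1-KO cells.

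A stretch of chromosome 13 held 7 of the loci, 55 members and 16 Pspc1-KO windows. They lay within chr13:100415201-117309200, and all were hypomethylated in both lines, by -2.72 to -1.32 in Tet2-KO and by -0.73 to -0.31 in Pspc1-KO cells. The first overlapped Rpl31-ps13, a ribosomal protein pseudogene inside Naip1, a gene of the inflammasome sensor family, and held 84.7, 74.7 and 78.2 RPKM in WT siNC and 20.6, 18.99 and 20.6 RPKM in Tet2-KO libraries. At Cdc20b the signal was 165, 223 and 223 RPKM in WT siNC and 24.5, 30.4 and 40.5 RPKM in Tet2-KO libraries, and next to the annotated gene Gm9848 it was 77.2, 66.7 and 74.3 RPKM in WT siNC and 11.8, 12.9 and 8.20 RPKM in Tet2-KO libraries. In each case the KO libraries lay far below WT. In the Pspc1 experiment the Naip1 locus held 199.7, 206 and 197 RPKM in WT and 156, 146 and 148 RPKM in Pspc1-KO libraries, while its Input was 4.82, 3.55 and 6.42 RPKM and 2.21, 3.71 and 4.99 RPKM. The remaining loci lay in introns of Plpp1 and BC067074 and 20443 bp from Ndufs4 and 34086 bp from Emb, and were named after their values were seen.

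Windows of the Tet2-KO list were dense in the distal part of this stretch. Its 16.9 Mb held 548 listed windows, of which 542 were lower in Tet2-KO cells. The first 12 Mb held 77 of them (6.42 per Mb) and the rest 471 (96.2 per Mb). The 100.4 Mb of chromosome 13 before the stretch held 344 windows, 242 of them lower, or 3.43 per Mb. After it, 91 windows, 85 of them lower, lay within 2.79 Mb. The 16 Pspc1-KO windows of the stretch were all lower too. Over those windows together, IP signal was 243, 251 and 243 RPKM in WT and 191, 189.8 and 187 RPKM in Pspc1-KO libraries. Input over the same windows was 3.195, 2.88 and 4.43 RPKM in WT and 1.82, 2.08 and 2.91 RPKM in Pspc1-KO libraries, so the Input groups overlapped by 1 library each. The Input mean was lower in Pspc1-KO cells at all 7 loci, with a median log2 change of -0.69 (range -0.88 to -0.43), and no window there passed the adjusted threshold. Input libraries did not overlap at Cdc20b (2.96, 2.66 and 3.83 RPKM in WT and 2.65, 1.24 and 1.27 RPKM in Pspc1-KO) and at the locus nearest to Emb (2.96, 2.22 and 2.70 RPKM and 1.32, 0.927 and 1.90 RPKM). After the Input change was subtracted, the Pspc1-KO change was above 0 at 6 of the 7 loci (0.012 to 0.56) and stayed below 0 at the BC067074 locus (-0.26). Only the Naip1 locus, with 127, reached 100 Input reads, and the other loci of the stretch held 10 to 55. The other 14 Pspc1-KO windows of chromosome 13, which lay near no member, were all lower in IP too, but their Input overlapped, at 11.1, 13.1 and 8.59 RPKM in WT and 10.3, 10.8 and 10.2 RPKM in Pspc1-KO libraries. At the other 25 loci hypomethylated in both lines, Input was lower at 14, with a median of -0.044. Whether copy number had a part in the chromosome 13 values was not tested, and for the Tet2 comparison it cannot be told apart from 5mC.

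**Figure D4:**
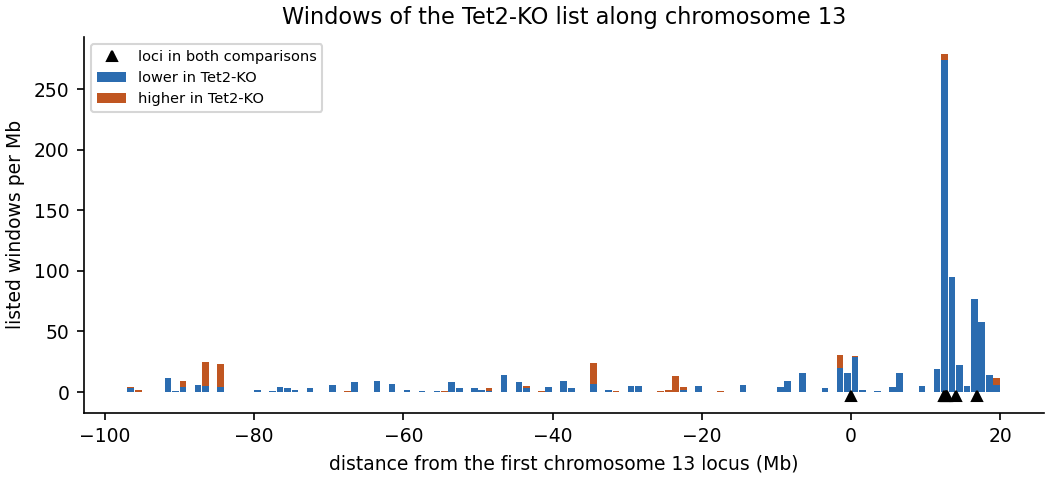
Bars count the windows of the Tet2-KO list per Mb along chromosome 13, stacked by direction, against the distance from the first locus listed in both comparisons, and triangles mark the 7 loci. The bar at 12 Mb is the tallest, with 274 windows lower and 5 higher in Tet2-KO cells.

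Hypermethylation in both lines was seen at 4 loci. Bcat1 encodes the cytosolic branched-chain amino acid aminotransferase, and its locus at chr6:145004301-145004700, with 4 members, rose from 24.3, 25.6 and 27.2 RPKM in WT siNC to 79.0, 78.2 and 87.7 RPKM in Tet2-KO libraries. In the other experiment WT libraries held 41.9, 47.3 and 49.7 RPKM and Pspc1-KO libraries 96.3, 94.6 and 93.3 RPKM. The log2 changes were 1.66 ± 0.0476 (SD, n = 2) in Tet2-KO and 1.03 ± 0.0228 (SD, n = 3) in Pspc1-KO cells. In an intron of Zfhx3, a homeobox transcription factor gene, at chr8:108712101-108712500, the signal was 3.47, 1.88 and 2.61 RPKM in WT siNC and 23.0, 14.6 and 14.1 RPKM in Tet2-KO libraries, 1.72, 2.60 and 2.14 RPKM in WT and 10.8, 8.56 and 8.84 RPKM in Pspc1-KO libraries. Zfhx3 had the largest rise in Pspc1-KO cells, 2.08 ± 0.179 (SD, n = 3), while its Input was lower there, 4.82, 4.88 and 1.69 RPKM in WT and 0.882, 0.927 and 1.43 RPKM in Pspc1-KO libraries. The rise started from few reads. WT IP libraries of that experiment held 2 to 7 reads in 1 Pspc1-KO window of the locus and 5 to 10 in the other. The largest rise in Tet2-KO cells, 3.22 ± 0.143 (SD, n = 2), was at chr1:88760601-88761200, 4865 bp from the noncoding RNA gene Platr5. Signal at this locus went from 4.48, 2.76 and 3.47 RPKM in WT siNC to 31.01, 33.9 and 37.6 RPKM in Tet2-KO libraries and from 10.3, 7.81 and 8.67 RPKM in WT to 21.4, 21.9 and 19.05 RPKM in Pspc1-KO libraries.

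The fourth such locus, at the annotated gene Gm4782 (chr6:50608601-50610400), is closely related in sequence to the single locus that was lower in Tet2-KO and higher in Pspc1-KO cells, at Gm5989 (chr6:23158201-23159800). Both loci shared 1125 stretches of 32 bases, and their windows had a median of 4 copies in the reference. Gm5989 held 237, 238 and 235 RPKM in WT siNC and 143, 138 and 141 RPKM in Tet2-KO libraries, whereas Gm4782 held 76.9, 72.9 and 75.9 RPKM in WT siNC and 119.5, 127 and 131 RPKM in Tet2-KO libraries. In the Pspc1 experiment Gm5989 held 531, 520.5 and 537 RPKM in WT and 609, 596 and 631 RPKM in Pspc1-KO libraries, and Gm4782 held 162, 159 and 173 RPKM in WT and 203, 210.4 and 211 RPKM in Pspc1-KO libraries. The IP signal of the related copies therefore moved in opposite directions in Tet2-KO cells and in the same direction in Pspc1-KO cells. Input was 10.4, 9.76 and 5.403 RPKM in WT and 9.70, 14.8 and 12.4 RPKM in Pspc1-KO libraries at Gm5989. At Gm4782 it was 1.48, 1.77 and 1.35 RPKM in WT and 0.882, 1.85 and 1.90 RPKM in Pspc1-KO libraries. With the Input change subtracted, the Pspc1-KO change was -0.32 at Gm5989 and 0.33 at Gm4782, which no longer shared a direction. This rests on 1 Pspc1-KO window at each locus. Gm5989 held 73 Input reads in all, with overlapping groups, and Gm4782 held 1 or 2 per library. Both are below the 100 reads required above for setting IP beside Input. Reads that match both copies equally are placed at one of them, so the split between the copies is uncertain.

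The 6 loci that were higher in Tet2-KO and lower in Pspc1-KO cells were deep, and their changes were small. They lay at Sfi1, at Gm10717 and at 4 places on an unplaced contig. Their WT signal ran from 637 to 3781 RPKM in WT siNC, and WT Input from 35.2 to 169 RPKM, beside a median WT Input of 1.42 RPKM at the loci hypomethylated in both lines. The Tet2-KO changes ran from 0.25 to 0.34 and the Pspc1-KO changes from -0.32 to -0.13. The locus at the start of Sfi1, a gene for a centrin-binding protein, lies inside the gene Drg1, overlaps Gm12735, and spans chr11:3192901-3193900. Here WT siNC libraries held 660.1, 612 and 617 RPKM and Tet2-KO libraries 769, 758 and 757 RPKM, and WT libraries 1207, 1215 and 1199 RPKM and Pspc1-KO libraries 959, 978 and 968 RPKM. Input was 39.3, 39.9 and 36.1 RPKM in WT and 43.4, 40.6 and 38.6 RPKM in Pspc1-KO libraries, although each window of the locus occurred once in the reference. The IP groups did not overlap and the Input groups did. At Gm10717 (chr9:3030401-3030600) WT siNC held 3163, 3305 and 3304 RPKM and Tet2-KO 3750.0, 3899 and 3946 RPKM, WT 1007, 988 and 988 RPKM and Pspc1-KO 882, 893 and 892 RPKM. Its Input was 105, 91.4 and 93.9 RPKM in WT and 82.0, 92.7 and 82.7 RPKM in Pspc1-KO libraries. Gm10717 and the 4 loci of the contig shared stretches of 32 bases with one another, except that Gm10717 shared none with the first of the 4.

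Sequence content and gene annotation, which the rule had not used directly, are given for the members beside the rest of the eligible Tet2-KO list. Of the members, 50.8% had a middle stretch of 32 bases that was unique in the reference, against 31.4% of the other 11211 eligible windows. Repeat-masked sequence made up at least 50% of 19.8% of members and of 68.8% of the others. Members held a median of 5 CpG sites (quartiles 3 and 8) and the others 4 (3 and 6). An exon was overlapped by 46.5% of members (53 of the members lay in Ahnak2) and by 7.70% of the others. The median WT siNC signal was 57.4 RPKM for members and 20.8 RPKM for the others, and among windows lower in Tet2-KO cells the median change was -1.87 for members and -2.61 for the others. Windows of 1 locus are not independent, so these are descriptions without a test. Of the 43 loci, 17 overlapped an exon, 7 lay in a gene outside its exons, 14 lay outside annotated genes and 5 were on contigs without gene annotation.

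Of 19 annotated imprinted genes, 12 had windows of the Tet2-KO list inside or within 5 kb, all lower in Tet2-KO cells, and 4 had windows of the Pspc1-KO list. Over all 55418 annotated genes the shares were 3.55% and 0.171%. Members stood at 2 of the 19, Plagl1 and Nnat, and at 51 of all annotated genes (0.0920%). The other 2 with a Pspc1-KO window, Gnas and Nespas, share the window at chr2:174284801-174284900, which was higher in Pspc1-KO cells. Its signal was 6.38, 10.4 and 8.04 RPKM in WT and 20.7, 18.8 and 20.4 RPKM in Pspc1-KO libraries, and the nearest Tet2-KO window started 11400 bp away, outside the rule. Among 11 genes of TET enzymes and their partners, 15 of DNA and RNA methyltransferases and 5mC readers, 6 of the PR-DUB deubiquitinase and 8 of pluripotency, 3 had Tet2-KO windows (5 lower at Tet2, 1 lower at Dnmt1 and 4 higher at Zfp42) and 0 had a member or a Pspc1-KO window.

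Windows of 4 of the 43 loci were also listed after knockdown of Nsun2, an RNA 5-methylcytosine methyltransferase gene, in comparisons that share the siNC libraries with the Tet2 comparison. The siNsun2 list held at least 242 windows in Tet2-KO and at least 31 in WT cells, counting those with 20 or more reads in a replicate pair. Whether 4 loci are many or few beside these lists was not tested. At Bcat1 (chr6:145004501-145004600) Tet2-KO libraries held 108, 111 and 119 RPKM with siNC and 68.4, 60.7 and 59.6 RPKM with siNsun2. At the Sfi1 locus (chr11:3193001-3193100) WT libraries held 518, 478 and 466 RPKM with siNC and 698, 643 and 649.5 RPKM with siNsun2, and Tet2-KO libraries 576, 569 and 564 RPKM with siNC and 369.8, 374 and 329 RPKM with siNsun2. Signal there was thus higher with siNsun2 in all WT libraries and lower with it in all Tet2-KO libraries. Gm10717 and the first contig locus were listed in WT cells only, with log2 changes from 0.11 to 0.12.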

How the data were processed

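MeDIP–seq and Input libraries of mES cells were taken as deposited. According to the submitters' processing notes and the study's methods, reads were trimmed with Trimmomatic 0.39, aligned to mm10 with Bowtie2 2.4.1, which reports 1 best alignment, freed of duplicates with Picard, and counted in 100-bp windows with MEDIPS without a copy-number correction. The authors deposited only windows with a Bonferroni-adjusted p below 0.1 in their edgeR test, so windows that did not differ are not listed, and lists from different depths differ in reach. Each window has deposited read counts, RPKM values (reads scaled to window length and library size, by the authors) and a relative methylation score from the authors, a CpG-adjusted fraction. Columns with the authors' means, fold ratios and p-values were not used. The number of columns that belonged to no sample was 0.

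Samples were grouped by their labels. Members, loci and gene lists were chosen with earlier results of these data known. Library totals, recovered from counts and RPKM, were 8.92 to 39.8 M reads for IP libraries of the comparisons described and 10.5 to 14.8 M for Input. Changes are log2 ratios of group mean RPKM plus 0.1, which understates changes of low windows. No test was run on the IP contrasts. Input counts were tested with edgeR 4.0.16 (quasi-likelihood, two-sided, recovered totals as library sizes, Benjamini-Hochberg over 307 windows, threshold 0.05) in R 4.3.3, with DESeq2 1.42.0 as an alternative, after the script was tested on simulated data. Other values used Python 3.11.15 with pandas 2.3.3 and numpy 2.4.6. In each of 4 direction classes up to 5 loci with the most windows were named, plus each locus at an exon or within 1 kb of a transcription start, with an Input call, or listed in a siNsun2 comparison. Copies are exact matches of the middle 32 bases of a window in the reference. Reference CpG counts matched the CpG column deposited by the authors. Alternatives covered the distance limit, pseudocount, read minimum, normalization, test, each library left out, and 1 chosen after seeing the data, chromosome 13 left out. Values of 1 locus and the sequence of 1 window are not reported here.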

Additional observations from a re-analysis of the deposited data

Results flagged for a closer look

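At the Sfi1 locus the siNsun2 change had opposite signs in WT and Tet2-KO cells, in every library. At chr11:3193001-3193100 the log2 change with siNsun2 in WT minus that in Tet2-KO cells was 1.12, and at chr11:3193101-3193200 it was 1.00. The difference was not tested, and both comparisons share their siNC libraries with the Tet2 comparison.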

How the results depend on the processing

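The Input calls were the results that moved most. Near members 10 windows were called in the reported test, 5 with TMM factors and 0 with DESeq2 under either set of size factors, where 11 (totals) and 7 (own factors) near members and 14 and 10 over all 307 windows had an unadjusted p under 0.05. The counts over all 307 windows were 10 in the reported test, 5 with TMM and 0 with DESeq2. Leaving out 1 Input library gave 0 to 8 calls near members and 0 to 8 over all windows, with 0 in both without WT Input replicate 3. Leaving out windows under 10 Input reads gave 10, as did leaving out chromosome 13, an alternative chosen after seeing the data. With the replicate number as a block, 5 windows near members and 5 overall were called. Deviations of same-numbered WT and Pspc1-KO Input libraries correlated at -0.0076, 0.048 and 0.13 over 193 windows, so the numbers do not pair the samples. No Input pair stood out from the others as near-identical, so summing such pairs gave no value.

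Requiring the same window in both lists left 121 members, and 21 of 23 loci with a median of 1 reference copy changed in the same direction (36 of 43 overall). The median Tet2-KO change of members that were lower, -1.869, was -1.822 with a pseudocount of 1, -1.846 with at least 20 reads and -1.906 to -1.872 without 1 library. That of members that were higher, 0.7424, was 0.7359, 0.6335 and 0.7265 to 0.7589. Subtracting the Input change moved the Pspc1-KO median from -0.5612 to -0.2791 for lower windows and from 1.059 to 1.279 for higher ones, and leaving out 1 library gave -0.5774 to -0.5408 and 1.001 to 1.117. These medians kept their sign, but at 17 of 43 loci the Pspc1-KO change had the other sign after the Input change was subtracted, 4 of them among the 12 loci with at least 100 Input reads. Thin Input limits what can be said of copy number at most loci.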
